A study of Mus musculus with 16 samples.

Results

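The tight junction genes described here were 33 of the 24421 genes counted in each library: 18 claudins and 15 genes for the other membrane proteins, scaffolds and polarity proteins of the junction. The rule was a list of gene names. Epithelial cells were released with EDTA from a segment of jejunum and a segment of ileum of wild-type C57BL6/J mice at postnatal day 6 (P6), before weaning, and at postnatal day 36 (P36), after weaning, and their RNA was sequenced in bulk. Each of the 8 mice gave both segments, which made 4 groups of 4 libraries (P6 jejunum, P6 ileum, P36 jejunum and P36 ileum), with 2 male and 2 female mice at each age. No transgene or treatment separated the groups, and each age came from its own mice. The titles of the P6 mice share 2 stems, one for replicates 1 and 3 and one for replicates 2 and 4, and what a stem marks is not given.

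Tight junctions join neighbouring epithelial cells near the lumen and set what passes between them. Claudins form their strands: some, such as Cldn2 and Cldn15, form channels for cations, and others, such as Cldn4 and Cldn8, are known as sealing claudins. Occludin and its MARVEL-domain relatives lie in the same strands, the JAM and CAR proteins lie beside them, and scaffolds such as ZO-1 and cingulin tie the strands to actin. In the small intestine the cation channels supply luminal sodium to the transporters that take up nutrients.

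Counts were scaled to CPM, counts scaled to a common library total after TMM normalisation, for each gene across libraries, and to RPKM (CPM per kilobase of the gene's counted length) wherever levels of different genes are set side by side. Library totals ran from 12159237 to 25947276 counts. Of the 33 genes, 24 had enough counts to be tested and 9 did not. The 6 epithelial markers were present in all libraries, with a summed level from 3846 to 15910 CPM. In a bulk sample, fewer cells of a type and less RNA per cell cannot be told apart.

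Certain libraries stood apart. In the P6 jejunum the chi-square per gene between 2 libraries was 13.2 and 19.2 within a title stem and from 34.3 to 45.3 between stems. In the P6 ileum it was 20.6 (replicates 1 and 3) and 285 (replicates 2 and 4) within a stem, and from 42.3 to 279 between stems. Itln1, a lectin made by Paneth and goblet cells, was at 782 and 557 CPM in P6 jejunum replicates 1 and 3. It was at 7.09 and 4.36 CPM in replicates 2 and 4. The ileal values were 620 and 435 CPM against 10.3 and 8.09 CPM. By their titles the P6 replicates are 4 separate mice. Whether mice of a stem share an origin is not given, and the P6 tests treat the 4 as independent. With the stem as a covariate, an alternative chosen after seeing the data, every member kept its side of the threshold in all comparisons. P6 ileum replicate 4 lay below all 3 other P6 ileum libraries for 13 of the 24 tested members and above them for 10, and over all 13429 tested genes these shares were 40.5% and 42.5%. Its deviations across genes had a Spearman correlation of -0.76 with the GC content of the transcript, a description over genes that share a library, against -0.23 to 0.49 in the other 15 libraries. Over the 24 members the corresponding correlation was -0.77. The most GC-rich tested member, Cldn3 (62.7% GC), was at 0.343 CPM in this library and at 25.4 to 40.0 CPM in the other 3. Calls that rest on the P6 ileum are therefore also given without this library, and the part of GC content in the differences was not tested beyond a correction reported with the processing alternatives. P6 ileum replicate 2 carried smooth muscle markers (summed 188 CPM, group median 2.36) and endothelial markers (39.3 CPM, group median 4.28), and in the P36 ileum the 4 enterocyte markers summed to between 3248 CPM (replicate 3) and 26472 CPM (replicate 1).

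**Figure D1:**
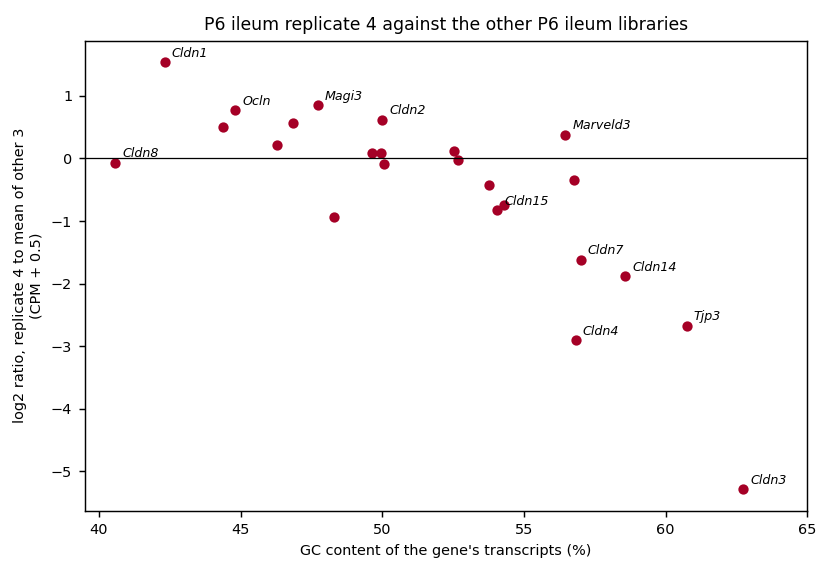
Each point is 1 of the 24 tested members, with the GC content of its transcripts in percent on the x axis and the log2 ratio of P6 ileum replicate 4 to the mean of the other 3 P6 ileum libraries on the y axis (CPM with a pseudocount of 0.5). Cldn3, Cldn4, Tjp3, Cldn14 and Cldn7 lie lowest, from -5.29 to -1.62, and Cldn1 lies highest, at 1.54.

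Cldn7, a claudin of the lateral membrane of enterocytes, was the claudin with the highest mean RPKM in every group. It made up 47.4% ± 0.890 (SD, n = 4) of the summed RPKM of the 18 claudins in P6 jejunum, 35.2% ± 9.35 in P6 ileum, 46.7% ± 1.67 in P36 jejunum and 51.3% ± 4.90 in P36 ileum. Only in P6 ileum replicate 4 was another claudin ahead of it: there Cldn7 held 21.6% and Cldn2 52.4%. Without that library Cldn7 held 39.8% ± 2.67 of the P6 ileum total (SD, n = 3).

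The claudins behind Cldn7 differed between groups. Cldn2 followed at P6 in both regions, with 28.7% ± 0.732 of the jejunal total and 28.4% ± 16.0 of the ileal total. The Cldn4 share was 10.1% ± 0.952 at P6 for the jejunum and 18.5% ± 9.10 for the ileum. Without replicate 4, the ileal shares were 20.4% ± 1.48 for Cldn2 and 22.9% ± 2.11 for Cldn4, and their order turned. At P36 Cldn15 came second in both regions, with 37.3% ± 2.16 in the jejunum and 16.8% ± 1.25 in the ileum. In the P36 ileum it stood close to Cldn3 (13.8% ± 1.80) and Cldn2 (13.0% ± 2.76), and the library ranges of those last 2 overlapped.

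The summed RPKM of the 18 claudins was 798 ± 19.4 in P6 jejunum, 833 ± 186 in P6 ileum, 1125 ± 33.8 in P36 jejunum and 1239 ± 113 in P36 ileum (SD, n = 4 each). Without replicate 4 the P6 ileum sum was 926 ± 3.69 (SD, n = 3). Every P36 library lay above every P6 library, from 1090 against at most 929. These shares and sums are descriptions and carry no test.

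**Figure D2:**
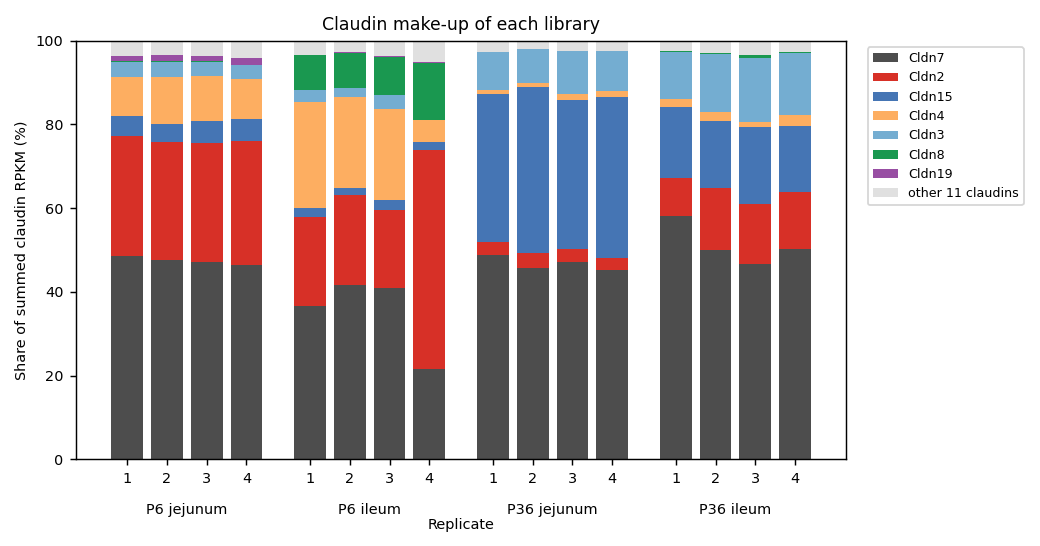
Stacked bars give the share of the summed RPKM of the 18 claudins (y axis, percent) taken by each named claudin in each of the 16 libraries (x axis, by group and replicate). Cldn2 (red) is wide at P6 and Cldn15 (blue) wide at P36, and the bar of P6 ileum replicate 4 differs from the 3 beside it.

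**Figure D3:**
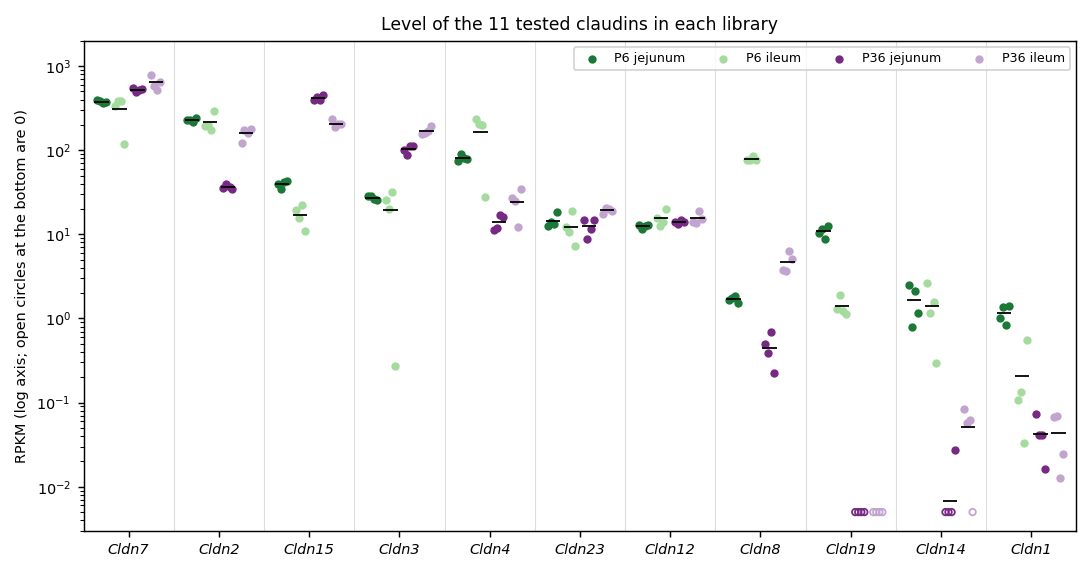
Points give the RPKM of the 11 tested claudins in each library on a log axis, coloured by group, with a black line at the group mean and open circles at the bottom for a count of 0. Cldn15 and Cldn3 lie higher at P36 in both regions, Cldn19 is at 0 in all 8 P36 libraries, and Cldn8 lies higher in the ileum at both ages.

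The channel-forming claudins Cldn2 and Cldn15 moved in opposite directions with age. The ileal fall of Cldn2 was lost when certain single libraries were left out. In the files' mm10 annotation Cldn2 lies at chrX:139800808-139811388 on the plus strand and Cldn15 at chr5:136967869-136975845 on the plus strand. Their promoters are shown because the pair changed places: each run holds the 250 bases before the RefSeq start of the gene (GRCm38.p6, 5′ to 3′ on the gene's strand, at chrX:139800558-139800807 and chr5:136967619-136967868). Capitals mark any of 5 short motifs, searched on both strands, which did not overlap in these windows. The TATA box motif was spelled TATAAA. The motif of caudal-type factors was spelled TTTATG. The GC box motif was spelled GGGCGG. For HNF1 the letters searched were GTTAAT. For HNF4 the letters searched were CAAAGTC.
Cldn2: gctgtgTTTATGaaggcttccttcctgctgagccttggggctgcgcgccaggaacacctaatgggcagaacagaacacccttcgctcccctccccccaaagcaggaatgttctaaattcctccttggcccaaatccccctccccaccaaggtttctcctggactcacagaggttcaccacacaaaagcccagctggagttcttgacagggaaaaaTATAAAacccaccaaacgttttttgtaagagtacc
Cldn15: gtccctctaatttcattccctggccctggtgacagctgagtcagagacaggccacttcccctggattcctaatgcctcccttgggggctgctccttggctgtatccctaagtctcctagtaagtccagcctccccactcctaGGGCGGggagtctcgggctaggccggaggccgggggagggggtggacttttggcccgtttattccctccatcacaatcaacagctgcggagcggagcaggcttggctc
The Cldn2 window held the TATA box motif, starting 35 bases before the gene, and the caudal-type motif, and the Cldn15 window held only the GC box motif. The bases just after this Cldn2 start matched no reference transcript of the gene, while those after the Cldn15 start did. Windows were found for 26 of the 33 members, 39 in all. The TATA box motif was in 10.3% of these and in 12.4% of all 32851 RefSeq windows of this length, the caudal-type motif in 5.13% and 10.8%, and the GC box motif in 61.5% and 32.7%. The HNF1 letters were in 10.3% of the members' windows and 6.43% of all, and the HNF4 letters in 0% and 3.84%. A match is a description of letters, not a site.

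In the jejunum Cldn2 was at 707, 693, 670 and 742 CPM in P6 replicates 1 to 4 and at 109, 121, 111 and 107 CPM in the P36 replicates. Ileal libraries were at 598, 605, 532 and 889 CPM at P6 and at 372, 537, 494 and 543 CPM at P36. The jejunal ages were far apart, while the ileal ages overlapped. In the jejunum Cldn2 fell by 2.65 ± 0.17 on the log2 scale (SE; 6.26-fold; edgeR quasi-likelihood test, adjusted p = 4.25e-09). In the ileum the log2 change was -0.43 ± 0.16 (adjusted p = 0.0348), and without P6 ileum replicate 4 it was -0.25 with an adjusted p of 0.0942, so the call was lost. Leaving out P36 jejunum replicate 3, P36 ileum replicate 1 or P36 ileum replicate 3 also ended it.

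Cldn15 was at 72.9, 63.4, 76.9 and 79.6 CPM in the jejunum at P6 and at 734, 800, 734 and 835 CPM there at P36. In the ileum the values were 36.3, 29.3, 41.7 and 20.01 CPM at P6 and 429, 348, 382 and 378 CPM at P36. No P6 library came near a P36 library in either region. Cldn15 rose 10.6-fold in the jejunum (log2 3.41 ± 0.19, adjusted p = 8.41e-10) and 12.1-fold in the ileum (log2 3.59 ± 0.20, adjusted p = 6.54e-10; log2 3.43 without P6 ileum replicate 4).

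Set against each other per length, Cldn2 exceeded Cldn15 5.83-fold ± 0.563 in the jejunum at P6, and by P36 the jejunal RPKM ratio of Cldn2 to Cldn15 was 0.0876 ± 0.00682 (SD, n = 4). In the ileum the ratio was 14.2 ± 8.62 at P6 (10.0 ± 2.37 without replicate 4) and 0.776 ± 0.179 at P36. The 16 libraries thus fell on opposite sides of 1 by age. The sum of both genes was 269 ± 11.8 RPKM in P6 jejunum, 231 ± 47.2 in P6 ileum, 456 ± 27.5 in P36 jejunum and 366 ± 11.5 in P36 ileum.

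Regional differences followed a different course for these channel genes. Cldn15 was higher in the jejunum at both ages, 2.30-fold at P6 (log2 1.20 ± 0.18, adjusted p = 0.000160) and 2.02-fold at P36 (log2 1.01 ± 0.18, adjusted p = 0.00102), in 4 of 4 mice each time. Without P6 ileum replicate 4 the P6 difference of Cldn15 was log2 1.04. Cldn2 did not pass between the regions at P6 (log2 0.10 ± 0.16, adjusted p = 0.695; log2 0.28 and 0.0947 without that library). At P36 it was 4.33-fold higher in the ileum (log2 -2.12 ± 0.17 for jejunum against ileum, adjusted p = 8.04e-07, 4 of 4 mice). The change of the regional difference between the ages was tested as an interaction: it was 2.22 ± 0.23 for Cldn2 (adjusted p = 2.36e-05) and 0.19 ± 0.25 for Cldn15 (adjusted p = 0.688).

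Between the regions at P6, 3 of the 24 tested members were higher in jejunum (Cldn1, Cldn15 and Cldn19) and 3 in the ileum (Cldn8, Cgnl1 and Marveld3). Cldn1 reached the filter on low counts through its P6 jejunum libraries, so its place in this and the following P6 counts was fixed in advance. Over all tested genes 11.1% were called higher on the jejunal side, 14.8% on the ileal side and 25.9% in either direction. At P36 the split was 1 (Cldn15) against 3 (Cldn2, Cldn8 and Cgnl1), where 8.3% and 7.8% of all genes were called in those directions. The median log2 difference over the tested members was 0.11 at P6 and -0.14 at P36, against -0.05 and -0.04 over all tested genes. A log2 difference past 2 was also met by 4 members at P6 and 2 at P36, against 6.5% and 3.6% of all genes. The libraries of the regions did not overlap for 7 members at each age, where that held for 30.1% of all genes at P6 and 26.9% at P36. With scaling by library totals alone, which moved the median of all genes to -0.33 at P6 and -0.18 at P36, the splits were 3 against 9 (6.65% and 30.4% of all genes) and 1 against 5 (6.67% and 11% of all genes). Leaving out P6 ileum replicate 4 raised the count higher in the P36 ileum from 3 to 7, through Cldn3, Cldn4, Cldn23 and Tjp3, while the share of all genes called there rose from 7.8% to 14.9%. That library enters the P36 comparison only through the fit shared by all 16 libraries. With it, the log2 differences of these genes at P36 were -0.72 ± 0.62, -0.79 ± 0.45, -0.62 ± 0.25 and -0.53 ± 0.38 (SE), and none passed. The P36 libraries of the regions did not overlap for Cldn3, Cldn23 and Tjp3. It gave 4 members each way at P6, adding Magi3 and Cldn4, where 15.8% and 16.8% of all genes were called. Leaving out P6 ileum replicate 2 raised the count higher in the P6 ileum from 3 to 5, through Cldn12 and Tjp1, with 13.8% of all genes called. The 4 enterocyte markers summed to between 26051 and 30922 CPM in the P6 jejunum against 5868 to 9603 CPM in the ileum of the same mice. Most of that sum was Apoa1, at 16195 to 20404 CPM against 3003 to 5889 CPM. Fabp2 was at 3916 to 6002 CPM against 239 to 949 CPM, and Anpep at 1427 to 1841 CPM against 447 to 670 CPM. Alpi was closer, at 3053 to 4106 CPM against 1469 to 2704 CPM. The part of these markers in the regional differences was not tested.

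**Figure D4:**
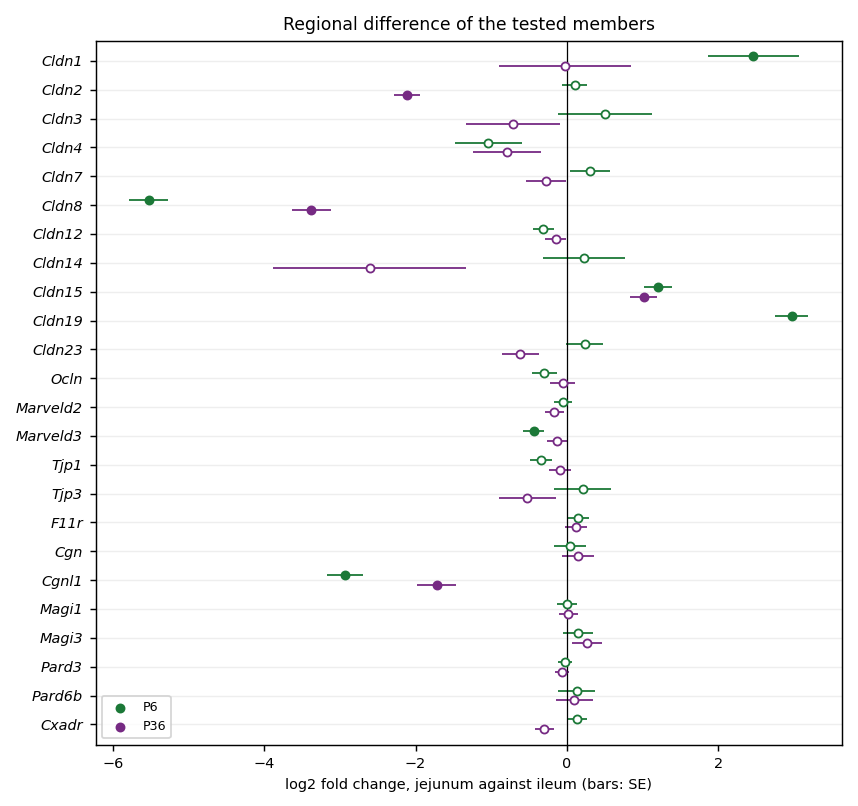
Points give the log2 fold change of jejunum against ileum (x axis, positive where the jejunum is higher) for each tested member at P6 (green) and P36 (purple), with bars of 1 SE and filled points for an adjusted p below 0.05; Cldn19 has no P36 point because all 8 P36 libraries were at 0. Cldn8 and Cgnl1 lie to the left at both ages, Cldn15 to the right at both ages, and Cldn2 to the left at P36.

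Cldn8, a sealing claudin of distal gut and kidney epithelium (chr16:88560826-88563183, minus strand, a single exon), had the widest regional difference of the tested members at both ages. It was at 3.93, 4.15, 4.41 and 3.59 CPM in the 4 P6 jejunum libraries and at 183, 180, 199.8 and 179 CPM in their ileal counterparts. P36 libraries were at 1.18, 0.927, 1.62 and 0.533 CPM for the jejunum and at 8.85, 8.68, 15.1 and 12.0 CPM for the ileum. All 4 groups were separate from each other. The ileum was higher 46.1-fold at P6 (log2 -5.53 ± 0.26, adjusted p = 9.76e-10) and 10.4-fold at P36 (log2 -3.38 ± 0.25, adjusted p = 4.14e-07), and the gap between the regions was wider at P6 (interaction log2 -2.15 ± 0.33, adjusted p = 0.000774). With age Cldn8 fell by 1.90 ± 0.25 in the jejunum (adjusted p = 1.13e-05) and fell by 4.05 ± 0.24 in the ileum (adjusted p = 1.28e-09). These calls held in every alternative and every left-out library, and without P6 ileum replicate 4 the P6 difference was log2 -5.54 and the ileal change -4.07.

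Cgnl1, the gene of the scaffold paracingulin, had a similar arrangement of levels. Its P6 ileum libraries were at 85.6, 86.5, 85.4 and 83.9 CPM and its P6 jejunum libraries between 8.81 and 12.7 CPM. At P36 it was between 3.54 and 6.90 CPM in the ileum and between 0.941 and 2.56 CPM in the jejunum. The ileum was 7.65-fold higher at P6 (log2 -2.94 ± 0.24, adjusted p = 3.85e-07) and 3.30-fold higher at P36 (log2 -1.72 ± 0.25, adjusted p = 0.000229), and the P6 difference was -2.94 without P6 ileum replicate 4 as well. The interaction was -1.21 ± 0.34 with an adjusted p of 0.0365, and it fell short of the threshold with no filter on low counts and when any of 10 of the 16 libraries was left out, among them P6 ileum replicates 1 and 2. Its relative Cgn, the scaffold cingulin, did not pass between the regions at either age (log2 0.04 ± 0.21 and 0.15 ± 0.21, adjusted p = 0.903 and 0.708).

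Cldn19, a claudin best known from kidney and eye, had counts only at P6. P6 libraries were at 44.3, 49.3, 37.6 and 53.8 CPM for the jejunum and at 5.48, 8.06, 5.21 and 4.81 CPM for the ileum. All 8 P36 libraries had a count of 0. The jejunum was 7.84-fold higher at P6 (log2 2.97 ± 0.22, adjusted p = 8.72e-06, 4 of 4 mice; log2 2.89 without P6 ileum replicate 4). Against the floor of 3 counts over a group, P6 was at least 1249-fold higher than P36 in the jejunum (3960 counts against 0) and at least 145-fold higher in the ileum (492 against 0). The gene reached the filter on low counts through its P6 libraries, so its fall was fixed in advance and is given without a test. Per length Cldn19 still stood below Cldn12 in the P6 jejunum, at 10.9 ± 1.64 against 12.5 ± 0.564 RPKM, although the ranges of the libraries overlapped. Cldn16, with which Cldn19 pairs in the kidney, had no count in any library.

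Cldn1 and Cldn14 were low and also fell with age. Cldn1, a broadly expressed sealing claudin, was at 3.27, 4.46, 2.68 and 4.60 CPM in the jejunum at P6, at 0.346, 0.431, 0.108 and 1.81 CPM in the ileum of those mice, and at most 0.235 CPM in any P36 library. It was 5.51-fold higher in the jejunum at P6 (log2 2.46 ± 0.60, adjusted p = 0.00646; log2 3.62 without P6 ileum replicate 4). It fell by 4.71 ± 0.71 in the jejunum (adjusted p = 4.23e-05) and fell by 2.22 ± 0.74 in the ileum (adjusted p = 0.0175). The ileal fall did not pass without P6 ileum replicate 4 (log2 -1.07, adjusted p = 0.131) or without P36 ileum replicate 3. Cldn14, a claudin of the inner ear and kidney, had 276 counts over the jejunal libraries of P6 and 1 over those of P36, a ratio of 261 with an exact 95% counting interval from 46.5 to 10354 (adjusted p = 6.33e-06). In the ileum it had 226 counts at P6 and 8 at P36 (log2 -4.61 ± 0.73, adjusted p = 6.67e-05; log2 -4.94 without P6 ileum replicate 4). Both genes also reached the filter through P6 libraries, Cldn1 through those of the jejunum. The jejunal fall of Cldn1, its higher level in the P6 jejunum and both falls of Cldn14 were therefore fixed in advance. Their p-values support nothing.

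Cldn3 and Cldn4, both counted among the sealing claudins, are neighbours on chromosome 5 and moved in opposite directions with age. Cldn3 (chr5:134986214-134987476, plus strand) and Cldn4 (chr5:134945124-134946934, minus strand) have a single exon each and lie 39.3 kb apart. Their promoters are printed for that reason, as the 250 bases before each RefSeq start (GRCm38.p6, 5′ to 3′ on each gene's strand, chr5:134985964-134986213 and chr5:134946935-134947184), with the GC box motif, read on either strand, in capitals.
Cldn3: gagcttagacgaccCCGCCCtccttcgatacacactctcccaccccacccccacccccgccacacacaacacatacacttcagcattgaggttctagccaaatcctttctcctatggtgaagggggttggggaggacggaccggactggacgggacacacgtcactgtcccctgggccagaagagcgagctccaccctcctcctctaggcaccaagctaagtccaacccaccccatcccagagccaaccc
Cldn4: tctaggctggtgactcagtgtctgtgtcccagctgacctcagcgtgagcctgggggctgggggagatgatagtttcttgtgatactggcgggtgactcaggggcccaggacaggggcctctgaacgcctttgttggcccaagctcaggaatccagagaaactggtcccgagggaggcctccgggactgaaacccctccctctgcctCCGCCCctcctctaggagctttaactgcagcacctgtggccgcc
Both windows held the GC box motif once and none of the other motifs searched. Their GC contents were 60.8% and 62%, against a median of 52.4% over all windows.

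For Cldn3 the jejunal libraries were at 36.4, 36.4, 32.8 and 32.5 CPM at P6 and at 128, 110, 144 and 140 CPM at P36. The ileal libraries were at 32.0, 25.4, 40.0 and 0.343 CPM at P6 and at 194, 203, 216 and 244 CPM at P36. The ages did not overlap in either region. Cldn3 rose 3.77-fold in the jejunum (log2 1.92 ± 0.64, adjusted p = 0.0197) and 8.77-fold in the ileum (log2 3.13 ± 0.67, adjusted p = 0.000939). Without P6 ileum replicate 4 the changes were 1.91 (adjusted p = 9.86e-09) and 2.72 (adjusted p = 1.28e-09).

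For Cldn4 the jejunal libraries were at 134, 165, 147 and 140 CPM at P6 and at 20.3, 21.6, 30.8 and 29.4 CPM at P36. The ileal libraries were at 424, 366, 364 and 50.9 CPM at P6 and at 48.7, 44.9, 21.9 and 61.8 CPM at P36, so that only replicate 4 brought the P6 ileum into the P36 range. It fell by 2.52 ± 0.46 in the jejunum (adjusted p = 0.000285) and fell by 2.77 ± 0.47 in the ileum (adjusted p = 0.000120; log2 -3.12 without P6 ileum replicate 4). Between the regions at P6 the log2 difference of -1.04 ± 0.44 did not pass (adjusted p = 0.0969). Without replicate 4 it was -1.39 with an adjusted p of 0.000544, and the 3 remaining ileal libraries were higher than every jejunal library.

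The other expressed claudins moved less. Cldn7 ran from 528 to 567 CPM in the jejunum at P6 and from 723 to 798 CPM there at P36, a log2 change of 0.47 ± 0.26 that did not pass (adjusted p = 0.149) but did without P6 ileum replicate 4 (adjusted p = 0.00320). In the ileum it rose 2.09-fold (log2 1.06 ± 0.27, adjusted p = 0.00308; log2 0.80 without replicate 4). Cldn23 rose in the ileum by log2 0.64 ± 0.25 (adjusted p = 0.0362), a call lost in 10 of 27 alternatives, among them the left-out P6 ileum replicates 1, 2 and 4 and P36 ileum replicates 2, 3 and 4. Cldn12, a claudin linked to calcium passage, did not pass in any of the 4 comparisons, although between the regions at P6 it did with library totals alone (adjusted p = 0.00854) and without P6 ileum replicate 2. Its group means were 50.8 ± 2.30, 63.1 ± 13.1, 57.0 ± 3.05 and 63.3 ± 9.50 CPM (P6 jejunum, P6 ileum, P36 jejunum and P36 ileum).

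With age in the jejunum, 5 of the 24 tested members rose and 10 fell, where 24.7% and 26.9% of all tested genes did (51.6% in either direction). In the ileum 8 rose and 11 fell, where 25.5% and 30.1% of all tested genes did (55.7% in either direction). With a log2 change past 2 also required, 7 members passed in the jejunum and 8 in the ileum, against 16.4% of all genes in each. Cldn1, Cldn14 and Cldn19 are among those that fell and had reached the filter through P6 libraries. The 21 members without these 3 gave 5 up and 7 down in the jejunum, 8 up and 8 down in the ileum, and 4 and 5 past a log2 change of 2. The groups did not overlap for 21 members in the jejunum and 12 in the ileum, where that held for 63.8% and 44.4% of all genes. The median log2 change of the members was -0.31 for the jejunum and -0.28 for the ileum, against -0.01 and -0.03 over all tested genes. Without P6 ileum replicate 4, 7 rose and 11 fell in the jejunum, while 9 rose and 9 fell in the ileum, against 30.2% and 32.4% of all genes in the jejunum and 30% and 32% in the ileum. Markers of other cell types moved with age too. The 4 Paneth cell markers summed to between 17.1 and 797 CPM in the P6 libraries and between 4080 and 14175 CPM at P36, the 5 goblet cell markers to between 1683 and 4012 CPM against 7661 to 18049 CPM, the 3 tuft cell markers to at most 2.84 CPM against 6.73 to 15.8 CPM, and the 4 macrophage markers to between 166 and 510 CPM against 3.66 to 17.1 CPM. The macrophage sum at P6 was mostly Csf1r, at 152 to 498 CPM against 0.608 to 3.55 CPM at P36. Cd68 was at 5.57 to 25.0 CPM at P6 and 1.23 to 6.35 CPM at P36, and Adgre1 at most 2.46 CPM in any library. Jejunal Lyz2 went the other way, at 0.473 to 1.01 CPM at P6 and 0.838 to 9.16 CPM at P36. Each marker in these sums was above 0 in every group, and the part of these markers in the changes of Cldn15 and the other members was not tested.

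By kind of gene, the 11 tested claudins had a median absolute log2 change of 2.52 for the jejunum and 2.77 for the ileum, unmoved by setting Cldn19 to its bound, and the 13 other members 0.49 and 0.44. Over all tested genes it was 0.63 and 0.70. With Cldn1, Cldn14 and Cldn19 among them, these medians describe the tested genes and not the family.

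**Figure D5:**
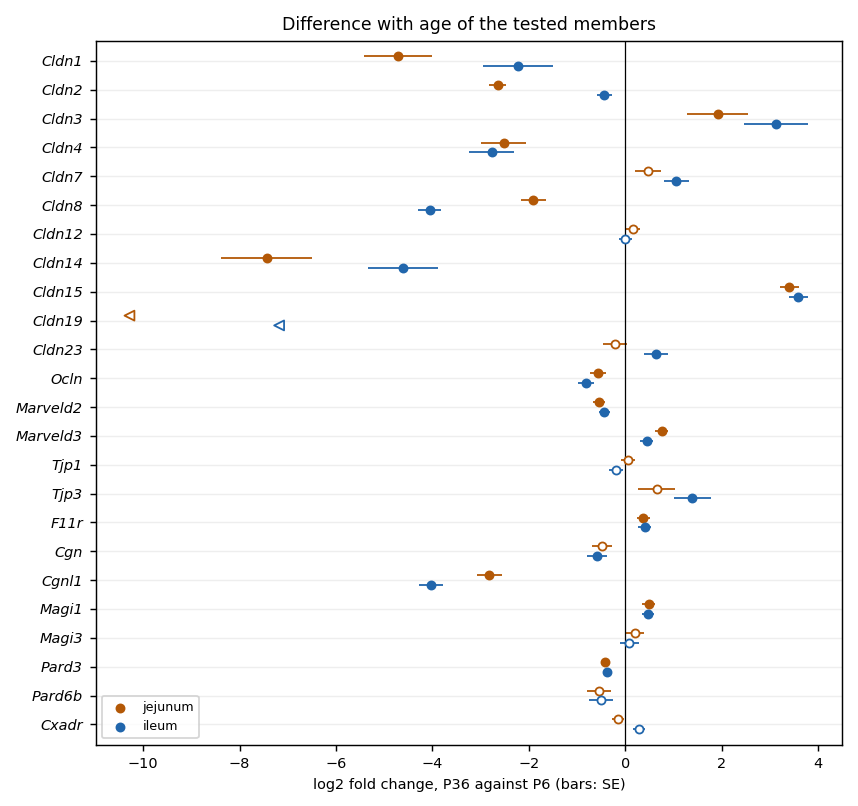
Points give the log2 fold change of P36 against P6 (x axis, positive where P36 is higher) for each tested member in the jejunum (brown) and the ileum (blue), with bars of 1 SE and filled points for an adjusted p below 0.05. Open triangles for Cldn19 mark bounds at the floor of 3 counts, and Cldn14 in the jejunum is a fitted value against 1 count; Cldn15 and Cldn3 lie farthest to the right.

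Among the MARVEL-domain proteins the directions divided with age. Ocln, occludin, ran from 200 to 208 CPM in the jejunum at P6 and from 129 to 146 CPM there at P36, and fell by 0.57 ± 0.17 (adjusted p = 0.00852), a call lost without P36 jejunum replicate 3. Ileal libraries held 210, 215, 215 and 365 CPM at P6 and between 128 and 173 CPM at P36, and the level fell by 0.82 ± 0.17 (adjusted p = 0.000619; -0.58 without P6 ileum replicate 4). Marveld2, tricellulin of the corners where cells meet, fell by 0.54 ± 0.12 in the jejunum (adjusted p = 0.00147) and fell by 0.43 ± 0.12 in the ileum (adjusted p = 0.00685; log2 -0.40 without P6 ileum replicate 4). Ocln and Marveld2 are neighbours on chromosome 13, 43.5 kb apart on the same strand. Marveld3 rose by log2 0.75 ± 0.14 in the jejunum (adjusted p = 0.000263) and 0.44 ± 0.14 in the ileum (adjusted p = 0.0119; log2 0.55 without P6 ileum replicate 4). It was also higher in the ileum at P6 (log2 -0.44 ± 0.14, adjusted p = 0.0278; log2 -0.33 without P6 ileum replicate 4), a call lost with no filter on low counts, without P6 jejunum replicate 1, 2 or 3, and without P6 ileum replicates 2 and 4 together.

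F11r, the adhesion molecule JAM-A, had the highest mean RPKM of the 15 members that are not claudins in every group, from 79.3 ± 4.90 in the P6 ileum to 114 ± 5.09 in the P36 jejunum. It rose by log2 0.38 ± 0.14 in the jejunum (adjusted p = 0.0335) and 0.40 ± 0.14 in the ileum (adjusted p = 0.0217; log2 0.39 without P6 ileum replicate 4). The jejunal call was lost without P6 jejunum replicate 1, 2 or 3 and without P36 jejunum replicate 1, 2 or 4, and the ileal call without P36 ileum replicate 1. Cxadr, the coxsackie and adenovirus receptor, lay between 182 and 298 CPM in all 16 libraries and passed in none of the 4 comparisons. Without P6 ileum replicate 4 its ileal change with age did pass (log2 0.34, adjusted p = 0.0205), as it did without P36 jejunum replicate 3 or P36 ileum replicate 3.

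Of the ZO scaffolds, Tjp1 (ZO-1) passed in none of the 4 comparisons, although between the regions at P6 it did with library totals alone (adjusted p = 0.00293) and without P6 ileum replicate 2. It had group means of 131 ± 7.84, 166 ± 38.3, 137 ± 11.1 and 146 ± 19.3 CPM. Tjp3 (ZO-3) ran from 110 to 124 CPM in the jejunum at P6 and from 158 to 209 CPM there at P36. Its ileal libraries were at 118, 101, 158 and 19.3 CPM at P6 and between 240 and 289 CPM at P36. Its ileal rise passed (log2 1.39 ± 0.38, adjusted p = 0.00595; log2 1.05 without replicate 4), and its jejunal change of 0.65 ± 0.38 did not (adjusted p = 0.164) but did without that library (adjusted p = 0.000616). Cgn fell by 0.59 ± 0.21 in the ileum (adjusted p = 0.0254; log2 -0.74 without P6 ileum replicate 4), a call lost without P6 ileum replicate 1 or 3, P36 jejunum replicate 3, or P36 ileum replicate 2 or 3. In the jejunum its change of -0.48 ± 0.21 did not pass (adjusted p = 0.0650) but did without P6 ileum replicate 4 (adjusted p = 0.0236), P36 ileum replicate 1 or P36 ileum replicate 3.

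Cgnl1 fell by 2.82 ± 0.26 in the jejunum (adjusted p = 1.64e-07) and fell by 4.03 ± 0.25 in the ileum (adjusted p = 3.00e-09) and was the member outside the claudins with the largest change in each. Magi1, a scaffold with PDZ domains, rose by log2 0.49 ± 0.13 in the jejunum and 0.47 ± 0.13 in the ileum (adjusted p = 0.00515 and 0.00590), the latter 0.50 without P6 ileum replicate 4. Its P6 jejunum libraries were at 36.5, 49.3, 35.0 and 48.2 CPM, lower in replicates 1 and 3 than in 2 and 4. Magi3 passed in neither region (adjusted p = 0.434 and 0.749), but without P6 ileum replicate 4 its ileal rise did (log2 0.35, adjusted p = 0.0488), as did a higher level in the P6 jejunum than ileum (log2 0.41, adjusted p = 0.0416). Of the polarity genes, Pard3 fell by 0.42 ± 0.09 in the jejunum and fell by 0.38 ± 0.09 in the ileum (adjusted p = 0.00134 and 0.00251), with an ileal log2 change of -0.35 without P6 ileum replicate 4, and Pard6b did not pass (adjusted p = 0.0785 and 0.0941), although its fall did in both regions without P36 ileum replicate 1 and in the jejunum without P36 ileum replicate 3.

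In all, 5 members were higher at P36 in both regions (Cldn3, Cldn15, Marveld3, F11r and Magi1) and 10 were lower in both (Cldn1, Cldn2, Cldn4, Cldn8, Cldn14, Cldn19, Ocln, Marveld2, Cgnl1 and Pard3). None passed in opposite directions. The share of all genes called in both regions is not given. Taken singly, 24.7% rose and 26.9% fell in the jejunum, and 25.5% and 30.1% in the ileum. Among the 10, the falls of Cldn14 and Cldn19 and the jejunal fall of Cldn1 were fixed in advance. The ileal calls of Cldn1 and Cldn2 were lost without P6 ileum replicate 4. The regional difference itself differed between the ages for 3 of the 24 tested members, Cldn2, Cldn8 and Cgnl1, where 8.69% of all tested genes did. By direction, 1 of them moved toward the jejunum at P6 (3.68% of all genes) and 2 toward the ileum (5.01%). Without P6 ileum replicate 4 the interaction also passed for Cldn1 (log2 3.65, adjusted p = 0.00850) and Cldn3 (log2 0.81, adjusted p = 0.0112), and without P6 ileum replicate 3 for Cldn23. That of Cldn1 supports nothing, because the gene reached the filter through its P6 jejunum libraries.

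The 9 untested members were near 0. Cldn16 had no count in any library and Cldn18, a claudin of stomach and lung, had 1. Cldn6, Cldn9, Cldn10 and Cldn11 had at most 9 counts summed over any group. Cldn5, the endothelial claudin, had 40 counts in the P6 ileum, all of them in replicate 2 (1.72 CPM), the library with endothelial markers, and 0 in all P36 libraries. Jam3 was at 1.68 CPM in that same library and at most 0.346 CPM elsewhere. Jam2 was at 2.15 CPM there and at 2.40 CPM in replicate 4. The part of other cell types in these values was not tested.

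Beyond the members, 7 further claudins and claudin-like genes were in the files and none had enough counts to be tested. Of 31 other tight junction genes tested, 2 were higher on the jejunal side and 4 on the ileal side at P6, and 0 and 5 at P36, beside 11.1%, 14.8%, 8.3% and 7.8% of all tested genes. Ildr1, a protein of tricellular junctions, was higher in the ileum at both ages (log2 -1.62 ± 0.24 at P6, adjusted p = 0.000157, and -2.77 ± 0.26 at P36, adjusted p = 3.51e-06), as was the angiomotin relative Amotl1 (-1.84 ± 0.30 and -1.95 ± 0.31, adjusted p = 0.000311 and 0.000402). With age, 3 of the 31 rose and 6 fell in the jejunum, while 4 rose and 7 fell in the ileum, beside 24.7% and 26.9%, and 25.5% and 30.1%, of all tested genes. Arhgef2, an exchange factor for RhoA known at tight junctions, rose in both regions (log2 2.67 ± 0.28 and 2.56 ± 0.28, adjusted p = 1.01e-06 and 1.59e-06). The polarity gene Pard3b fell in both (log2 -1.80 ± 0.15 and -1.26 ± 0.15, adjusted p = 8.69e-08 and 3.93e-06).

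Of 19 adherens junction and desmosome genes tested, 4 were higher on the jejunal side and 3 on the ileal side at P6, and 0 and 1 at P36. With age 5 rose and 3 fell in the jejunum, and 8 rose and 1 fell in the ileum, beside the same shares of all tested genes as above. The desmosomal plaque gene Pkp2 rose in both regions (log2 1.20 ± 0.14 and 0.85 ± 0.14, adjusted p = 3.57e-06 and 0.000109), and the beta-catenin gene Ctnnb1 fell in the jejunum (log2 -0.88 ± 0.14, adjusted p = 5.79e-05). The median log2 change with age of this list was 0.02 for the jejunum and 0.24 for the ileum. For the 31 tight junction genes it was -0.25 and -0.07, and over all tested genes -0.01 and -0.03.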

How the data were processed

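Raw counts per gene were deposited by the authors, 1 file for each of 16 libraries (24421 genes each). They made Kapa stranded mRNA libraries from epithelium released with EDTA, sequenced them on a NovaSeq instrument, trimmed with Trimmomatic 0.38, aligned to mm10 with STAR and counted read pairs on exons by gene with featureCounts 1.6.3, reverse stranded. Reads shared by near-identical genes are not resolved by such counts.

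All 16 libraries entered 1 edgeR 4.0.16 quasi-likelihood fit (R 4.3.3) with 4 group means, after filterByExpr (13429 genes) and TMM scaling. Contrasts were the regions at P6 and P36, the ages in each region and their interaction. Benjamini-Hochberg adjustment covered every tested gene, and an adjusted p below 0.05 counted as a call. SE is the log2 fold change divided by the square root of the F statistic. A floor of 3 counts over a group bounded folds against 0, and intervals and floors cover counting error only. Replicates are separate mice by their titles, and no 2 replicates held the same counts: chi-square per gene for pairs of replicates ran from 13.2 to 285. RPKM used the gene lengths in the files. GC contents came from reference transcripts and covered 12948 of the 13429 genes, and promoter windows came from RefSeq.

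Same-numbered jejunum and ileum libraries of an age came from the same mouse by their titles. Their deviations from group means correlated with Pearson's r from 0.157 to 0.391 across genes (8 mice). No values between different mice are given beside these, so they do not test the pairing, which rests on the titles.

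The members and the lists were chosen with earlier results of these data known. All members may be named, genes of the other lists only for the 3 smallest adjusted p in a comparison, and markers where they touch a result. Alternatives were median-of-ratios scaling, library totals, no filter, a mean CPM of at least 1, sex as a covariate, a robust prior, an absolute log2 fold change above 2, only the 8 libraries compared, DESeq2 1.42.0, leaving out each library, and a replicate block of mouse. Omitting both P6 ileum libraries that stood apart, the title stem of the P6 mice as a covariate and a correction for GC content (loess, span 0.3) were chosen after seeing the data. The procedure was tested on simulated data. No sequences of proteins were used here.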

Additional observations from a re-analysis of the deposited data

Results flagged for a closer look

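Each member was checked in each group for a library far from the other 3, by the gap to the nearest library over the group's range against Dixon's 95% value of 0.829. Of 120 member and group combinations with any spread 19 passed it. Chance alone gives about 1 in 20 for normally distributed values, which low counts are not. A group with a single library above 0 passes by construction, so the 19 cannot be set against that rate. In the P6 ileum 4 of the 19 were replicate 4: Cldn4 at 50.9 CPM (others 364 to 424), Ocln at 365 CPM (210 to 215), Marveld3 at 57.3 CPM (43.3 to 44.5) and Magi3 at 127 CPM (67.8 to 72.9). The GC correlation of this library is given with the results. Other P6 ileum cases were Cldn8 in replicate 3, at 199.8 CPM (179 to 183), and 2 untested members in replicate 2, Cldn5 at 1.72 CPM (others at 0) and Cldn10 at 0.0862 CPM (0.0490 to 0.0542).

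In the P6 jejunum, Cldn12 was at 47.4 CPM in replicate 2 (others 51.8 to 52.1), Tjp3 at 124 CPM in replicate 2 (110 to 113) and Marveld2 at 72.4 CPM in replicate 4 (62.5 to 63.2). In the P36 jejunum, Cldn14 was at 0.0533 CPM in replicate 4, a single count where the others had 0, Marveld3 was at 65.4 CPM in replicate 1 (56.0 to 57.2) and Tjp1 at 153 CPM in replicate 2 (130 to 132). In the P36 ileum, Magi3 was at 125 CPM in replicate 1 (75.7 to 79.0), the library with the highest enterocyte marker sum of that group. The other untested members were Cldn9 at 0.105 CPM in P6 jejunum replicate 3 (0.0436 to 0.0479), Cldn11 at 0.0479 CPM in P6 jejunum replicate 4 and 0.118 CPM in P36 jejunum replicate 1, Cldn18 at 0.0441 CPM in P36 jejunum replicate 2 and Jam3 at 0.266 CPM in P36 jejunum replicate 4, the last 4 in groups otherwise at 0.

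The regional difference differed between the ages for Cldn2 (interaction log2 2.22, adjusted p = 2.36e-05), Cldn8 (-2.15, adjusted p = 0.000774) and Cgnl1 (-1.21, adjusted p = 0.0365), by edgeR's quasi-likelihood test of the interaction.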

How the results depend on the processing

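Over the members' single tests under all alternatives, 3231 kept their side of the threshold, 69 gained it, 56 lost it and 0 passed in the opposite direction. Counts of members moved as follows, and the cause was not tested beyond the settings themselves. With library totals alone, 9 members were higher in the P6 ileum (3 in the report) and 5 in the P36 ileum (3), beside 30.4% and 11% of all genes. Requiring an absolute log2 fold change above 2 left 0 higher in the P36 jejunum (1), 1 up (5) and 6 down (10) with age in the jejunum, and 2 up (8) and 6 down (11) in the ileum. The shares of all genes were then 2.06%, 7.86% and 8.59%, and 6.4% and 10%. With only the 8 libraries compared, 6 were higher in the P36 ileum, 9 rose in the jejunum, and 5 rose and 6 fell in the ileum. Over all genes these shares were 11.5%, 34.7%, 19.3% and 23.5%. Without a filter on low counts, the interaction toward the ileum at P6 held for 1 member, Cldn8 (2), beside 2.85% of all genes. Omitting P6 ileum replicates 2 and 4 together, chosen after seeing the data, gave 7 members higher in the P36 ileum and 3 interactions toward the jejunum at P6 (1), beside 14.8% and 5.22% of all genes. The GC correction, also chosen after seeing the data, gave 3 such interactions, adding Cldn7 and Tjp3, beside 7.19% of all genes. The title stem of the P6 mice as a covariate, added likewise, changed no call of a member.

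Leaving out each library in turn gave 2 to 5 members higher in the P6 ileum, 3 to 7 higher in the P36 ileum, 1 to 3 interactions toward the jejunum at P6 and 1 to 2 toward the ileum. The shares of all genes ran from 10.5% to 16.8%, 4.81% to 14.9%, 2.46% to 7.17% and 3.4% to 6.83%.

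With the mouse as a replicate block, 3 members were higher in jejunum and 3 in ileum at P6, 1 and 3 at P36, and 1 and 2 in the interaction, the same members as without it, so the block changed no call. The GC correction with the replicate block gave 4 interactions toward the jejunum at P6 (Cldn1, Cldn2, Cldn7 and Tjp3), beside 9.06% of all genes. That of Cldn1 was fixed in advance by the filter on low counts. For the ages, no paired analysis was possible because P6 and P36 came from different mice.

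With CPM in place of RPKM the Cldn7 share of the claudins was 33.5% and 24.8% for the P6 jejunum and ileum, and 40.4% and 42.6% at P36. Depth limits the 9 untested members, whose group sums reached at most 104 counts.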
